A study of Homo sapiens with 6 samples.

Results

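Iron enters most cells bound to transferrin, is taken up through the transferrin receptor, and is reduced inside endosomes before it crosses the membrane. What the cell does not use at once is packed into ferritin shells or leaves through ferroportin, and red cell precursors send most of it to mitochondria, where heme is made. The iron regulatory proteins IRP1 and IRP2 set the balance after transcription. When iron is scarce they bind a hairpin called the iron-responsive element, which blocks translation of ferritin and ferroportin mRNAs and protects transferrin receptor mRNA from decay.

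The genes described here are the 9 of 20030 listed genes that encode this machinery, chosen by symbol: TFRC and TFR2 (transferrin receptors), STEAP3 (endosomal iron reductase), FTH1 and FTL (ferritin heavy and light chains), SLC25A37 (mitoferrin-1, the mitochondrial iron importer), SLC40A1 (ferroportin), and ACO1 and IREB2 (IRP1 and IRP2). RNA-seq counts were available for 6 libraries of cells labelled H929, that is NCI-H929, a multiple myeloma cell line. Of these, 3 were labelled IGF2BP1-KD (knockdown) and 3 IGF2BP1-NC (negative control). IGF2BP1 is an RNA-binding protein that reads m6A-marked mRNAs. Per the study's methods, knockdown cells carried a lentiviral short hairpin RNA under a U6 promoter and were selected with puromycin, and the control construct is not given in the sources used here. Which of the listed hairpin targets the knockdown libraries carried is likewise not given, nor whether the replicates were separate cultures, so p-values measure only the spread between these libraries, which may be technical.

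Total counts were 16885449 to 18112179 per library, and 3 counts, the limit that a count of 0 allows, correspond to 0.166 to 0.178 CPM (counts relative to the library total). IGF2BP1 itself was at 48.1, 43.7 and 49.1 FPKM in the controls and at 13.5, 12.9 and 12.8 FPKM in the knockdown libraries. FPKM is a level per gene length and library size. Every knockdown library was below every control library (log2 fold change -1.85, SE 0.065, edgeR adjusted p = 4.8e-08). The labelled cell type was not borne out by its markers. Of 14 plasma cell genes only 3 (SDC1, PRDM1 and XBP1) exceeded 1 CPM throughout, 7 never had more than 3 counts in any library, and CD27 had 0 counts in all 6. By contrast, each of 17 erythroid genes exceeded 1 CPM in all 6 libraries, with GATA1, the master erythroid factor, at 4032 to 5143 counts and embryonic globin HBE1 at 78172 to 95239 counts. The summed erythroid level was 8465 to 9568 CPM in the controls and 8443 to 9347 CPM in the knockdown libraries, and these ranges overlap. Of 7 macrophage genes only CD68 exceeded 1 CPM throughout, and none of 5 hepatocyte genes did. The libraries are therefore called by their labels, without a cell type. Control library 1 had 2689 XBP1 counts against 1181 to 1365 in the other 5, and results whose call or size turned on it are given with and without it.

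Among the 9 genes, 4 had an iron-responsive element match in their mRNA by a simple sequence rule. The rule asked for the loop CAGTGN closed by 5 paired bases, with an unpaired C just before the 5′ side of the stem, in the UTRs of 1 representative GENCODE transcript per gene (release 44, GRCh38), on the mRNA strand only. It found a match in 138 of 18613 genes with such a transcript, or 0.741%. The matches, called elements below, are shown because IRP1 and IRP2 read hairpins of this form. The 6 loop bases are in capitals, the unpaired C is the fifth base, and every sequence runs 5′ to 3′ along the mRNA.
FTH1: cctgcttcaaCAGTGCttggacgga
FTL: cttgcttcaaCAGTGTttggacgga
SLC40A1: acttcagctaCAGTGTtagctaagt
TFRC element 1: ttatcggaagCAGTGCcttccataa
TFRC element 2: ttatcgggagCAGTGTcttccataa
TFRC element 3: gtatcggagaCAGTGAtctccatat
TFRC element 4: ttatcgggaaCAGTGTttcccataa

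The FTH1 element lay in the 5′ UTR, in exon 1 of 4, at chr11:61967576-61967600 (minus strand). That of FTL was also in the 5′ UTR, in exon 1 of 4, at chr19:48965337-48965361 (plus strand). Bases 35 to 59 of the 1203-base FTH1 mRNA and 29 to 53 of the 871-base FTL mRNA were covered, so both elements sit close to the cap. SLC40A1 carried its element in the 5′ UTR as well, in exon 1 of 8, at chr2:189580663-189580687 (minus strand), bases 100 to 124 of 3330. TFRC had 4 matches, all in the 3′ UTR within its last exon, 19 of 19, at chr3:196050981-196051005, chr3:196050577-196050601, chr3:196050512-196050536 and chr3:196050465-196050489 (minus strand). Among these 7 elements those of FTH1 and FTL and TFRC element 2 each held 1 G-U pair, and the other 4 were paired by Watson-Crick rules throughout. With Watson-Crick pairs only, 45 genes (0.242%) had a match, among them TFRC and SLC40A1. No match in the other 5 genes says only that these letters are not in these windows. The rule can also miss elements with another loop or an imperfect stem, so the matches in a gene are not a full count of its elements.

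**Figure D1:**
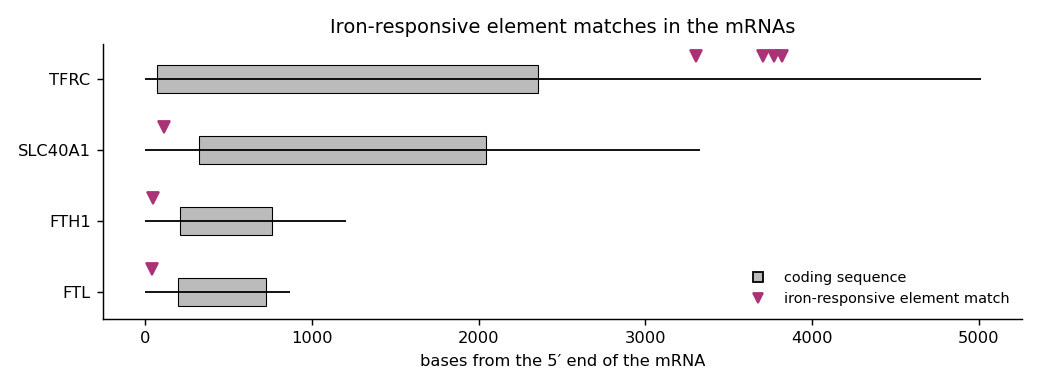
Position of the iron-responsive element matches (triangles) along the mRNAs of TFRC, SLC40A1, FTH1 and FTL, in bases from the 5′ end, with the coding sequence as a grey box and the UTRs as a line. SLC40A1, FTH1 and FTL have 1 match each before the coding sequence, and TFRC has 4 after it.

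The ferritin chains were the most abundant of these mRNAs. Ranked by mean FPKM over 20030 genes, FTH1 was number 7 and FTL number 10. The order by mean FPKM was then TFRC, SLC25A37, TFR2, SLC40A1, IREB2, STEAP3 and ACO1. Neighbours whose ranges overlapped were FTH1 and FTL in the controls only, SLC25A37 and TFR2 in both groups, SLC40A1 and IREB2 in the knockdown libraries only, and STEAP3 and ACO1 in the controls only. The order and the overlaps depend on the gene lengths behind the FPKM values. These were 8244 bases for SLC25A37 and 3672 for ACO1, while their representative transcripts have 4672 and 7443. Taken as 1 set, the 9 genes held 0.679% to 0.779% of all counts in the control libraries and 0.871% to 0.903% in the knockdown libraries. FTH1 and FTL together with TFRC account for most of these counts. From controls to knockdown, mean counts went from 42764 to 58798 for FTH1, 44412 to 47853 for FTL and 24764 to 28541 for TFRC. The difference in share is thus mostly that of FTH1 and does not describe the 9 genes alike.

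**Figure D2:**
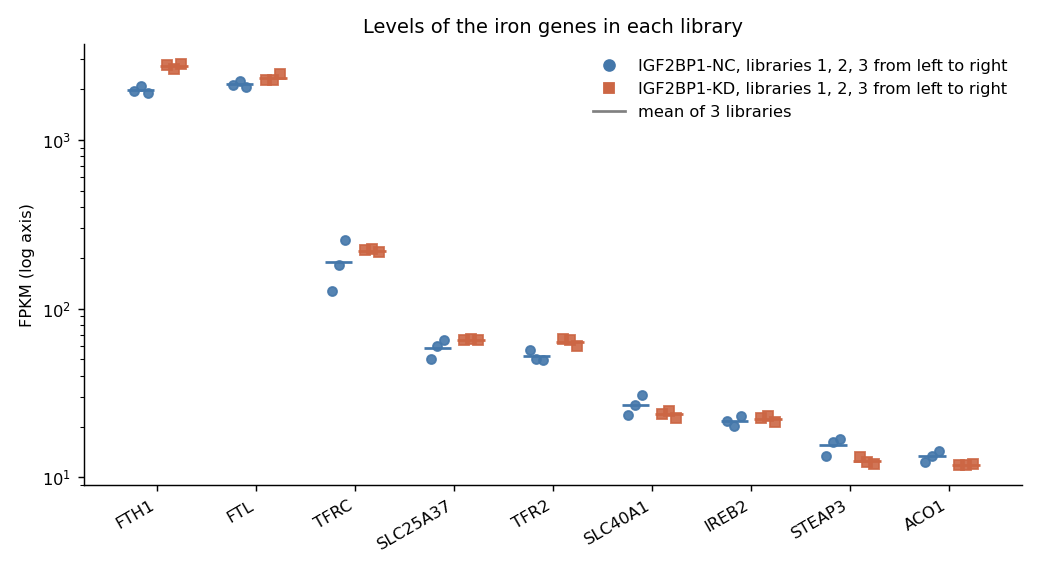
FPKM on a log axis for the 9 iron genes in each library, with the 3 IGF2BP1-NC libraries as blue circles, the 3 IGF2BP1-KD libraries as orange squares and the mean of each group as a line. FTH1, TFR2 and, by a small margin, FTL have every knockdown library above every control library, while the TFRC controls spread from 127 to 256 FPKM around the narrow knockdown values.

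In the comparison of knockdown with control, 2 of the 9 genes rose (FTH1 and TFR2), 1 fell (STEAP3) and 6 did not pass the test. Over all 11994 tested genes 13.7% rose and 14.5% fell by the same rule, edgeR's quasi-likelihood test with a Benjamini-Hochberg adjusted p under 0.05. The median log2 fold change was 0.11 over the 9 genes and -0.0048 over all tested genes. In FPKM, 3 of the 9 genes had every knockdown library above every control library, as had 23.7% of tested genes, and 2 had every knockdown library below, as had 22.2%. The largest change among the 9 was the 1.38-fold rise of FTH1. In bulk RNA a change in the make-up of the cells and a change in RNA per cell cannot be told apart.

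**Figure D3:**
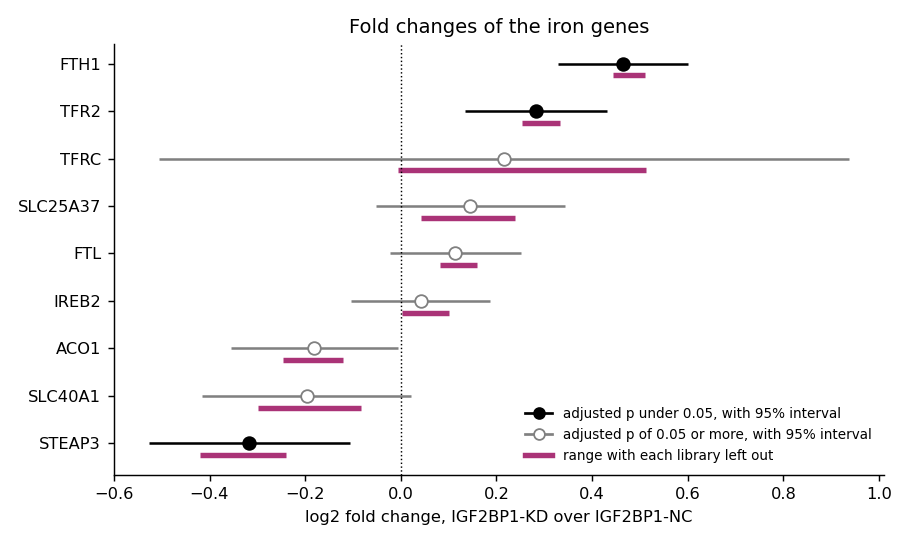
Log2 fold change (IGF2BP1-KD over IGF2BP1-NC) of each iron gene with its 95% interval, in black where the adjusted p was under 0.05 and in grey otherwise, and the range obtained when any 1 of the 6 libraries was dropped (purple). FTH1 and TFR2 stay above 0 throughout, STEAP3 stays below 0, and the TFRC interval runs from -0.50 to 0.94.

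TFRC, the receptor that imports transferrin-bound iron in dividing cells, was measured at 127, 180 and 256 FPKM in control libraries 1, 2 and 3 and at 222, 225 and 216 FPKM in the knockdown libraries. The knockdown values thus lie inside the control range. The means were 188 ± 64.8 FPKM (SD, n = 3) in the controls and 221 ± 4.62 FPKM (SD, n = 3) in the knockdown libraries, and the difference did not pass the test (log2 fold change 0.22, 95% interval -0.50 to 0.94, edgeR adjusted p = 0.612). What set TFRC apart was its spread among controls. The highest control was 2.01-fold above the lowest in FPKM, while the knockdown libraries lay within 1.04-fold of each other. On the log2 CPM scale the control SD was 0.52, and 1.09% of 9284 well-expressed genes (mean log2 CPM of at least 3) had a control SD as large. The result therefore turned on single libraries. Without control library 1 the log2 fold change was -0.0060 (edgeR adjusted p = 0.982), and without control library 3 it was 0.51 (edgeR adjusted p = 0.0440).

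TFR2, the second transferrin receptor, which is made in liver and in erythroid precursors and senses transferrin saturation, had 56.5, 50.2 and 49.6 FPKM in the controls and 66.4, 65.3 and 59.7 FPKM in the knockdown libraries. The groups did not overlap. TFR2 rose 1.22-fold, from 52.1 ± 3.81 to 63.8 ± 3.58 FPKM (SD, n = 3 each; log2 fold change 0.28, SE 0.067, edgeR adjusted p = 0.0101). With any 1 of the 6 libraries left out it still passed, at an edgeR adjusted p of at most 0.0488. The 5 hepatocyte markers summed to 0.520 to 2.41 CPM in the controls and 2.99 to 8.88 CPM in the knockdown libraries. Their part in the TFR2 difference was not tested. No iron-responsive element match was found in the TFR2 transcript, which spans chr7:100620420-100641552.

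STEAP3, which reduces ferric iron in the endosome so that it can leave it, was at 13.4, 16.1 and 16.9 FPKM in the controls and 13.3, 12.3 and 12.0 FPKM in the knockdown libraries. Every knockdown value was below every control value, but knockdown library 1 was close to control library 1. After TMM scaling the groups overlapped at that pair. STEAP3 fell 1.25-fold, from 15.5 ± 1.86 to 12.5 ± 0.656 FPKM (SD, n = 3 each; log2 fold change -0.32, SE 0.096, edgeR adjusted p = 0.0298). The call turned on single libraries. Without control library 1 the log2 fold change was -0.42 (edgeR adjusted p = 0.000663). The call was lost without control library 2 (edgeR adjusted p = 0.110), control library 3 (edgeR adjusted p = 0.104), knockdown library 2 (edgeR adjusted p = 0.0982) or knockdown library 3 (edgeR adjusted p = 0.0965). It was also lost with the replicate number as a block (edgeR adjusted p = 0.0623) and in limma on log2(FPKM + 1) without a filter (adjusted p = 0.0884).

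Ferritin is a shell of heavy chains, which oxidize iron, and light chains, which help it to mineralize. FTH1 had 1946, 2077 and 1904 FPKM in the controls and 2796, 2636 and 2813 FPKM in the knockdown libraries, so the groups were well apart. It rose 1.38-fold, from 1976 ± 90.2 to 2748 ± 97.9 FPKM (SD, n = 3 each; log2 fold change 0.47, SE 0.062, edgeR adjusted p = 0.000422). Dropping any 1 library gave a log2 fold change of 0.44 to 0.51, and each of these 6 fits called it. The 7 macrophage markers, which mark cells that recycle iron, summed to 64.9 to 94.1 CPM in the controls and 86.5 to 133 CPM in the knockdown libraries, nearly all of it CD68, while 4 of the 7 never exceeded 3 counts. Their part in the FTH1 difference was not tested. FTL was at 2110, 2243 and 2048 FPKM in the controls and 2276, 2265 and 2440 FPKM in the knockdown libraries. Its knockdown values lay just above the highest control in FPKM and overlapped with the controls after TMM scaling. The FTL means, 2134 ± 99.4 and 2327 ± 97.9 FPKM (SD, n = 3 each), gave a difference that did not pass the test (log2 fold change 0.11, 95% interval -0.023 to 0.25, edgeR adjusted p = 0.195).

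The balance of the chains can be read within each library. The FTH1 to FTL ratio of FPKM was 0.922, 0.926 and 0.930 in the controls and 1.23, 1.16 and 1.15 in the knockdown libraries. The ratio was thus below 1 in all 3 controls and above 1 in all 3 knockdown libraries. The FPKM values rest on lengths of 1229 bases for FTH1 and 1182 for FTL, while the representative mRNAs given above have 1203 and 871. Which chain had more mRNA per length therefore depends on the lengths used. The fold between the groups does not. The mean ratio was 0.926 ± 0.00372 in the controls and 1.18 ± 0.0409 in the knockdown libraries (SD, n = 3 each), 1.28-fold higher in the latter. A two-sided exact permutation test over the 6 libraries gave p = 0.1, the smallest value that 3 against 3 allows. FTH1 and FTL have many processed copies in the genome, and how multi-mapping reads were counted is not given in the sources used here, so the levels of both are uncertain in that respect. The listed relatives FTH1P18 and FTHL17 had 0 counts in every library, and mitochondrial ferritin FTMT had at most 1 count.

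SLC25A37 brings iron into mitochondria for heme and iron-sulfur cluster synthesis and is abundant in erythroid cells. It was measured at 50.6, 59.7 and 65.2 FPKM in the controls and at 65.0, 65.6 and 65.2 FPKM in the knockdown libraries. The knockdown libraries were nearly identical to each other and to control library 3. The difference did not pass the test (58.5 ± 7.39 and 65.3 ± 0.315 FPKM, SD, n = 3 each; log2 fold change 0.15, 95% interval -0.053 to 0.34, edgeR adjusted p = 0.252). The log2 fold change of SLC25A37 was 0.041 without control library 1 (edgeR adjusted p = 0.589) and 0.24 without control library 3 (edgeR adjusted p = 0.0666). In the knockdown libraries its SD on the log2 CPM scale was 0.0066, and 99.5% of the 9284 well-expressed genes had an SD at least as large.

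SLC40A1 encodes ferroportin, the iron exporter. Its levels were 23.3, 26.8 and 30.7 FPKM in the controls and 23.9, 24.6 and 22.6 FPKM in the knockdown libraries, and control library 1 fell among the knockdown values. The means were 26.9 ± 3.67 and 23.7 ± 1.04 FPKM (SD, n = 3 each), a difference that did not pass the test (log2 fold change -0.20, 95% interval -0.41 to 0.022, edgeR adjusted p = 0.162). Without control library 1 the log2 fold change was -0.30 and passed (edgeR adjusted p = 0.00712). Without control library 3 it shrank to -0.084 (edgeR adjusted p = 0.520). Of the ferroxidases that work with ferroportin, HEPH was at 49.9 ± 4.42 FPKM in the controls and 46.1 ± 2.51 FPKM in the knockdown libraries (SD, n = 3 each; edgeR adjusted p = 0.208).

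Neither sensor of cell iron passed the test. ACO1 encodes IRP1, which is a cytosolic aconitase while it holds an iron-sulfur cluster and an RNA-binding protein without it. It was at 12.3, 13.5 and 14.3 FPKM in the controls and 11.8, 11.8 and 12.0 FPKM in the knockdown libraries. All knockdown values were below the controls, by a small margin at control library 1. The means of 13.4 ± 1.01 and 11.9 ± 0.143 FPKM (SD, n = 3 each) gave a difference that missed the threshold after adjustment (log2 fold change -0.18, SE 0.080, edgeR adjusted p = 0.111). Leaving out control library 1 gave a log2 fold change of -0.25 that passed (edgeR adjusted p = 0.0182). Leaving out control library 3 gave -0.12 (edgeR adjusted p = 0.331). IREB2 encodes IRP2, which is degraded when iron is plentiful. Its levels were 21.4, 20.2 and 23.0 FPKM in the controls and 22.6, 23.0 and 21.4 FPKM in the knockdown libraries, fully interleaved. IREB2 had a log2 fold change of 0.041 with a 95% interval of -0.10 to 0.19 (edgeR adjusted p = 0.676). Per length IREB2 mRNA was above ACO1 mRNA in every library.

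Control library 1 was the lowest control and control library 3 the highest in 5 of the 9 genes: TFRC, SLC25A37, SLC40A1, ACO1 and STEAP3. This order was seen in 1941 of 11994 tested genes, or 16.2%. It was taken from these same values and not planned, so the counts describe the genes and test nothing. Among these 5, the control SD on the log2 CPM scale was 0.22 for SLC40A1, 0.21 for SLC25A37, 0.20 for STEAP3 and 0.13 for ACO1, beside 0.52 for TFRC. The median control SD of the 9284 well-expressed genes was 0.10. FTH1, FTL and TFR2 had control SDs of 0.073, 0.073 and 0.083, below that median. The summed plasma cell markers, mostly XBP1, were also highest in control library 1, as the sum was 77.3 to 162 CPM over the controls and 81.5 to 87.2 CPM over the knockdown libraries. Whether that library's difference bears on the iron genes was not tested.

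**Figure D4:**
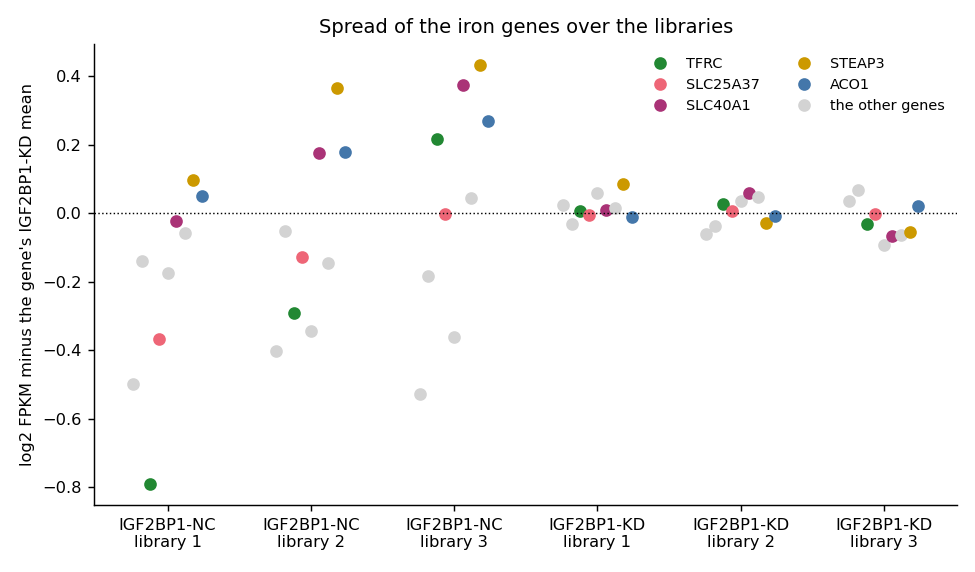
Each iron gene's log2 FPKM in every library, as the difference from that gene's IGF2BP1-KD mean. The 5 genes that are lowest in control library 1 and highest in control library 3 are coloured, with TFRC spread most widely, while all genes lie close to 0 in the knockdown libraries.

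The genes with the pattern most like TFRC over the 6 libraries were NEFH, NAGPA and SLC20A1, with root mean square differences of 0.106, 0.126 and 0.138 in gene-centred log2 CPM among 9283 genes searched. NEFH, a neurofilament gene, was at 10.1, 13.7 and 17.8 FPKM in the controls and 14.3, 14.7 and 15.4 FPKM in the knockdown libraries. That it shared with TFRC a low control library 1, a high control library 3 and close knockdown values follows from how it was picked. For FTH1, which had the largest fold change of the 9, the nearest were MMACHC (0.0365), RILP (0.0369) and CCSAP (0.0372). RILP, a late endosome and lysosome protein, was at 22.8, 24.0 and 23.3 FPKM in the controls and 31.6, 31.5 and 33.4 FPKM in the knockdown libraries.

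Other genes of iron handling were counted in 7 lists by role. Of 83 listed genes with counts deposited, 68 were tested, of which 8 rose, 10 fell and 50 did not pass the test, with a median log2 fold change of 0.0078. In the same comparison 13.7% of all tested genes rose and 14.5% fell. Among the called genes, LCN2, HAMP and HJV had under 10 counts in at least 1 library and passed the filter on low counts through the group where they were high, so their calls add nothing to these counts. With at least 10 counts asked of every library, 6 genes rose and 9 fell. Of 11 tested genes of uptake and reduction, SNX3 and LCN2 rose and PICALM fell. SNX3, a sorting nexin that recycles the transferrin receptor, had 85.4 ± 4.77 FPKM in the controls and 105 ± 3.86 FPKM in the knockdown libraries (SD, n = 3 each; log2 fold change 0.28, edgeR adjusted p = 0.00833). PICALM, an adaptor of clathrin-coated pits, was at 125 ± 18.3 and 99.4 ± 10.8 FPKM (SD, n = 3 each; log2 fold change -0.33, edgeR adjusted p = 0.0378), and the call was lost in 4 of the 6 fits that left a library out. Without control library 1 the PICALM log2 fold change was -0.22 (edgeR adjusted p = 0.0547). With all 6 libraries the PICALM call was lost with library size only (edgeR adjusted p = 0.0652) and upper-quartile factors (edgeR adjusted p = 0.0690). It was also lost with the replicate number as a block (edgeR adjusted p = 0.0845) and in every limma fit on FPKM (adjusted p up to 0.123). The call held in DESeq2, limma-voom and with the other count filters. LCN2, which carries iron bound to siderophores and is abundant in granulocytes, had only 2, 6 and 6 counts in the controls and 13, 23 and 24 in the knockdown libraries (log2 fold change 2.08, edgeR adjusted p = 0.00843). It passed the filter on low counts only through the knockdown group, so its call is not taken as support for a change. LTF, the granulocyte protein lactoferrin, which was too low to be tested, had 9, 3 and 6 counts in the controls and 4, 72 and 47 in the knockdown libraries, and its part in the LCN2 difference was not tested.

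In storage and ferritin turnover, 1 of 7 tested genes rose and 1 fell, and both encode biliverdin reductases, which act after heme is opened. BLVRB, the abundant red cell form, rose from 410 ± 13.3 to 508 ± 1.48 FPKM (SD, n = 3 each; log2 fold change 0.30, edgeR adjusted p = 0.00373). BLVRA fell from 30.1 ± 3.07 to 22.4 ± 1.31 FPKM (SD, n = 3 each; log2 fold change -0.43, edgeR adjusted p = 0.00491). NCOA4, the receptor that takes ferritin to the autophagosome, was at 79.0 ± 1.49 and 87.5 ± 6.11 FPKM (SD, n = 3 each; edgeR adjusted p = 0.127). The inducible heme oxygenase HMOX1 had 0, 2 and 1 counts in the controls and 3, 2 and 4 in the knockdown libraries, at or near the limit of 3 counts. In export and heme transport, 1 of 5 tested genes rose and the other 4 did not pass the test. SLC46A1, a folate and heme carrier, had 1.76 ± 0.114 and 2.68 ± 0.195 FPKM (SD, n = 3 each; log2 fold change 0.59, edgeR adjusted p = 0.00270).

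Of 9 genes that control IRP1 and IRP2, CUL1 and MMS19 fell and the other 7 did not pass the test. CUL1, the cullin of the ligase that degrades IRP2, was at 49.3 ± 2.18 and 42.7 ± 1.94 FPKM (SD, n = 3 each; log2 fold change -0.22, edgeR adjusted p = 0.0257). MMS19, a part of the cytosolic iron-sulfur assembly machinery, was at 14.4 ± 0.365 and 12.4 ± 0.526 FPKM (SD, n = 3 each; log2 fold change -0.22, edgeR adjusted p = 0.0251). CUL1 kept its call in 1 and MMS19 in 2 of the 6 fits that left a library out. The fit that called CUL1 was the fit without control library 1 (log2 fold change -0.25, edgeR adjusted p = 0.00750). With all 6 libraries and the replicate number as a block, CUL1 (edgeR adjusted p = 0.0550) and MMS19 (edgeR adjusted p = 0.0517) did not pass. CUL1 was also lost in unfiltered limma on log2(FPKM + 1) (adjusted p = 0.0534). The other settings without a fold threshold kept both calls. FBXL5, the iron-sensing subunit of the IRP2 ligase, was at 7.81 ± 0.350 and 7.79 ± 0.303 FPKM (SD, n = 3 each; edgeR adjusted p = 0.905).

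All 21 listed genes of mitochondrial iron use and iron-sulfur assembly were tested, and 3 rose, 4 fell and 14 did not pass the test. NUBPL, an assembly factor of respiratory complex I, rose from 0.400 ± 0.0416 to 0.569 ± 0.0489 FPKM (SD, n = 3 each; log2 fold change 0.50, edgeR adjusted p = 0.0334). NFU1, a late-acting cluster carrier, rose from 11.9 ± 0.184 to 15.7 ± 0.544 FPKM (SD, n = 3 each; log2 fold change 0.38, edgeR adjusted p = 0.00563). Among the genes that fell, NFS1 and LYRM4 encode partners of the core desulfurase complex. NFS1 was at 22.8 ± 0.613 and 17.3 ± 1.18 FPKM (SD, n = 3 each; log2 fold change -0.41, edgeR adjusted p = 0.00278), and LYRM4 had a log2 fold change of -0.28 (edgeR adjusted p = 0.0220). ABCB8, a mitochondrial transporter, fell from 23.6 ± 1.08 to 17.3 ± 1.35 FPKM (SD, n = 3 each; log2 fold change -0.46, edgeR adjusted p = 0.00138). The fourth was GLRX5, a cluster carrier. When each library was dropped, NFU1, NFS1 and ABCB8 passed in 6 of 6 fits, and NUBPL, LYRM4 and GLRX5 in 2 of 6. With all 6 libraries, NUBPL was lost in DESeq2 (adjusted p = 0.0623) and with the replicate number as a block (edgeR adjusted p = 0.0625). The block also lost GLRX5 (edgeR adjusted p = 0.0586). Unfiltered limma on log2(FPKM + 1) lost NUBPL (adjusted p = 0.109) and LYRM4 (adjusted p = 0.0564). The other settings run for these 3 without a fold threshold kept their calls.

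Of 7 tested genes from a list of other mRNAs with known iron-responsive elements, 1 fell and the other 6 did not pass the test. ALAS2 and CDC14A had a match by the sequence rule. CDC14A, a phosphatase whose match was in the 3′ UTR, was at 8.02 ± 0.651 and 6.81 ± 0.101 FPKM (SD, n = 3 each; log2 fold change -0.25, edgeR adjusted p = 0.0252). The CDC14A call was lost when any 1 of the knockdown libraries was dropped, at an edgeR adjusted p of up to 0.0890. With all 6 libraries it was also lost in every limma fit on FPKM (adjusted p up to 0.0850). It held in the other settings without a fold threshold. ALAS2, the first enzyme of erythroid heme synthesis, had 1980, 3348 and 3657 counts in the controls and 4572, 4488 and 5733 in the knockdown libraries (log2 fold change 0.73, SE 0.263, edgeR adjusted p = 0.107). The ALAS2 groups did not overlap, and control library 1 was again lowest. Without that library the log2 fold change was 0.50 and passed (edgeR adjusted p = 0.00964). The ALAS2 call also turned on the method. With all 6 libraries it passed in DESeq2 (adjusted p = 0.0324) and with the replicate number as a block (edgeR adjusted p = 0.0202). It also passed in filtered limma on log2(FPKM + 1) (adjusted p = 0.0478) and log2(FPKM + 0.1) (adjusted p = 0.0450). It did not pass in limma-voom (adjusted p = 0.0980) or the remaining settings.

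Of 9 tested genes of the hepcidin axis, HAMP was called higher and HJV lower, both at low counts. HAMP passed the filter on low counts through the knockdown group and HJV through the controls, so neither call is taken as support for a change. HAMP, the liver hormone hepcidin that removes ferroportin from the cell surface, had 7, 5 and 6 counts in the controls and 14, 16 and 47 in the knockdown libraries (log2 fold change 2.08, edgeR adjusted p = 0.0167), and it passed in 3 of the 6 fits that left a library out. Without knockdown library 3 the HAMP log2 fold change was 1.32 (edgeR adjusted p = 0.0602). The sum of the 5 hepatocyte markers was also higher in every knockdown library than in every control, as given beside TFR2, with ALB at 5, 20 and 13 counts in the controls and 100, 87 and 28 in the knockdown libraries. Their part in the HAMP difference was not tested. HJV, hemojuvelin, a co-receptor that drives hepcidin transcription, had 55, 57 and 57 counts in the controls and 10, 11 and 6 in the knockdown libraries. The HJV log2 fold change was -2.62 (SE 0.297, edgeR adjusted p = 0.000174), a 6.15-fold decrease. Fits that leave a library out share the same filter and add no support.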

How the data were processed

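RNA of 6 libraries was sequenced from a stranded mRNA kit, and libraries were grouped by their labels. Per the labels and the study's methods, the authors used Trimmomatic, HISAT2, HTSeq, Cufflinks and GRCh38. Versions, the strand setting and the treatment of multi-mapping reads are not given in the sources used here. The deposited counts are whole numbers per gene without normalization. The deposited FPKM values equal counts divided by gene length and library total, so they are no independent measurement.

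Counts were tested with edgeR's two-sided quasi-likelihood test (edgeR 4.0.16, R 4.3.3; glmQLFTest after robust glmQLFit, with filterByExpr and TMM factors) over 11994 genes, with 8036 left out for low counts, and p-values were adjusted by Benjamini-Hochberg over all tested genes. All 9 iron genes passed the filter. The common biological coefficient of variation was 9.55%. The edgeR, DESeq2 and limma fits were tested on simulated data. Intervals and count limits cover counting error only where they rest on counts of 1 library.

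Alternatives were DESeq2 1.42.0, scaling by library size alone or by upper quartiles, dropping the low-count filter or asking for 10 counts in all libraries, limma-voom, and limma 3.58.1 on log2(FPKM + 1) and log2(FPKM + 0.1) (mean FPKM of at least 1, or no filter), the replicate number as a block, a fold threshold of 2 and each library left out. Genes named outside the 9 were those of each list past the threshold, up to 3 a direction, IGF2BP1, and the 3 genes nearest in pattern to TFRC and to the gene with the largest change. NCOA4, HMOX1, HEPH, FBXL5, ALAS2, LTF, GLRX5, SLC39A14, TF and ERFE were chosen after their values were seen. So were the marker genes named singly and the order of the control libraries that was counted. Some listed genes are counted in their lists but not reported here singly. The genes and lists were chosen with earlier results of these data known. Among the FPKM rows, 27 symbols had turned into dates, none of an iron gene described here. Figures were drawn with matplotlib 3.10.9 in Python 3.11.15.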

Additional observations from a re-analysis of the deposited data

How the results depend on the processing

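Over the 9 iron genes, 88 log2 fold changes under settings other than leaving out a library kept their direction and their side of the threshold. The 2 exceptions were STEAP3 in limma on log2(FPKM + 1) without a filter (-0.28) and with the replicate number as a block (-0.31), neither past the threshold. With a library left out, 46 values did so, 4 calls were lost, 3 were gained and 1 value reversed. That reversal was TFRC, whose range was -0.00603 to 0.51. FTH1 and TFR2 passed in every fit run without a fold threshold. The count of iron genes that rose was 2 to 3 and that of iron genes that fell 0 to 3 with a library left out. At 2-fold or more, 0 rose and 0 fell. Among the other iron genes 5 to 12 fell with a library left out, and 6 fell in the unfiltered FPKM fit. Over all tested genes, 367 rose and 200 fell at 2-fold or more, and 1146 to 2062 fell with a library left out. Libraries of the same replicate number had deviations correlated at -0.052, 0.036 and -0.11, so the numbers were not taken to pair them. With the replicate block 0 iron genes and 6 of the other iron genes fell, and 1413 tested genes rose and 1500 fell, so the block moved no count over all genes by more than 1.5 times. The causes were not tested. With Watson-Crick pairs only, 45 genes rather than 138 had an iron-responsive element match, because fewer stems qualify. The 95% intervals of FTL, SLC25A37 and SLC40A1 included 0 with 3 libraries per group.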

Other observations

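SLC39A14, a transporter of iron that is not bound to transferrin, had 1775, 942 and 1089 counts in the controls and 881, 783 and 803 in the knockdown libraries. All knockdown values were below the controls, with control library 1 far above the rest, and the difference did not pass the test (log2 fold change -0.62, SE 0.253, edgeR adjusted p = 0.133). Without control library 1 the log2 fold change was -0.29 and passed (edgeR adjusted p = 0.00973). TF, transferrin itself, was expressed at 27 to 119 counts over the 6 libraries, with overlapping groups (log2 fold change 0.55, edgeR adjusted p = 0.499, and 1.00 without control library 1, edgeR adjusted p = 0.218). ERFE, the erythroid hormone that lowers hepcidin, had 181, 104 and 86 counts in the controls and 148, 166 and 175 in the knockdown libraries (log2 fold change 0.41, edgeR adjusted p = 0.260). Control library 1 was the highest of the 6 for ERFE, and without it the log2 fold change was 0.79 and passed (edgeR adjusted p = 0.00447). Without control library 3 the ERFE log2 fold change was 0.19 (edgeR adjusted p = 0.561).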
